A study of Saccharomyces cerevisiae with 10 samples.

Results

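RNA abundance was compared between jhd2Δ and WT budding yeast grown in YAD, a synthetic minimal medium in which ammonium is the nitrogen source and glucose the carbon source. This comparison uses 2 of the 10 samples of the series, and each sample stands for 3 replicate cultures, so 6 libraries entered the test. The jhd2Δ strain carries a hygromycin resistance cassette in place of JHD2 and is labelled Mat a in this medium. The WT strain is labelled Mat alpha. Both are haploid prototrophs of the BY4742 background, a laboratory derivative of S288C, and each genotype is a single strain, so the cultures repeat the growth and not the making of the strain. The strain list of the study gives both strains as MATα, which goes against the label of jhd2Δ, and the mating-type genes described below followed the labels. Loss of JHD2 and mating type therefore cannot be told apart in these cultures, and genes known to follow mating type are given apart from the rest. Cultures were harvested in log phase at an OD600 of 0.5, ribosomal RNA was depleted, and strand-marked libraries were read as 51-nt single reads. Values are FPKM, fragments scaled to transcript length and to the reads of the library, for which the sequencing depth is unknown.

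Jhd2 is the JmjC-domain demethylase that takes methyl groups off lysine 4 of histone H3, and the Set1 complex COMPASS puts them on. Haploid yeast cells are either a or α. An α cell holds the regulators α1 and α2 at its MAT locus: α1, with Mcm1, switches on the α-specific genes, and α2, with Mcm1, shuts the a-specific genes. An a cell lacks both, so its a-specific genes are on and its α-specific genes are off. Each type secretes a pheromone that the receptor of the other type binds, and both types share the G protein, the MAP kinase cascade and the transcription factor Ste12 behind the receptor. Ste12 binds the pheromone response element in front of genes for cell adhesion and fusion. The cells were not described as treated with pheromone.

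The upstream sequences of the a-specific genes held letters of the element that α2 binds, and they are shown because 6 of these 7 genes rose. The letters CATGTAA, the core of an α2 site, stood on either strand within the 500 nt before the start codon in 7 of the 7 a-specific genes, against 376 of 5983 protein-coding features (6.28%). The nearest match of each gene is printed in a 30-nt window of the R64 sequence from RefSeq, read 5′ to 3′ on the strand of the gene. Capitals mark the match, written TTACATG where it lies on the other strand.
MFA1 (chrIV:1384955-1384984, plus strand): aaaaaggaaatTTACATGttaaatgaaacc
MFA2 (chrXIV:352176-352205, plus strand): attcgggaaatTTACATGacatggatgcca
STE2 (chrVI:82340-82369, plus strand): gttttttcaacCATGTAAatttcctaattg
STE6 (chrXI:46489-46518, minus strand): attttttttgcCATGTAAttacctaatagg
BAR1 (chrIX:322090-322119, plus strand): gtaaaaggaaaTTACATGgcgagtgtcaca
AGA2 (chrVII:437113-437142, minus strand): attactgaaacCATGTAAtttccgaatacg
ASG7 (chrX:101893-101922, minus strand): catcgggaaatTTACATGttaactgcaatg
In STE2, STE6 and AGA2 the match ran along the strand of the gene, and in MFA1, MFA2, BAR1 and ASG7 along the other. A match describes letters and not binding. Of the 5 α-specific genes, 1 held CAATGACA, the core of the element bound by α1, in the same window (STE3), against 2.07% of all protein-coding features.

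The table listed 7041 features, and 6184 with a mean of at least 1 FPKM over the 6 libraries were tested. FPKM sums per library lay between 1477729 and 1610619, and the scales that brought the libraries to a common median lay between 0.94 and 1.11. Across the 3800 features of at least 10 FPKM, log2 values correlated at 0.962 to 0.968 within jhd2Δ, at 0.955 to 0.966 within WT and at 0.929 to 0.955 between the genotypes. JHD2 (YJR119C, chrX:644304-646490) stood at 0, 0.0454 and 0.0486 FPKM in the jhd2Δ libraries, against 4.85, 4.49 and 5.82 FPKM in the WT libraries (log2 fold change -2.52, SE 0.14, limma adjusted p = 0.000103). Levels in WT were low but clear of those in jhd2Δ. Of the 5 annotated features on each side of it, 9 were tested and 1 was called: YJR114W, which overlaps RSM7 on the opposite strand, stood at 7.75, 7.15 and 9.65 FPKM in the jhd2Δ libraries, against 15.6, 13.8 and 15.6 FPKM in the WT libraries (log2 fold change -0.76). Its partner RSM7 was at -0.40 without passing the test, and reads of overlapping features are not separable here, since the sources used here do not give the strand setting of the counting. ILM1 and STE24, the nearest annotated genes, were at -0.16 and -0.20 and did not pass the test.

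In all, 354 of the 6184 features (5.72%) were called, meaning an adjusted p under 0.05 in limma with a fold over 1.4. Of these, 104 (1.68%) rose in jhd2Δ and 250 (4.04%) fell. The median log2 fold change over all tested features was 0.01, and signed values in parentheses after a gene below are log2 fold changes. Without any threshold on p, the 3 jhd2Δ libraries lay above all 3 WT libraries for 1089 features (17.6%) and below them for 1121 (18.1%). The split between risers and fallers moved with the scale of the libraries, to 60 up and 295 down on the FPKM as deposited and to 44 up and 449 down on a scale set by summed FPKM, which moved the median of all features to -0.12. The count also moved when a library was left out. Each library but WT replicate 3 changed it by more than 1.5 times, to 203 and 166 without WT replicates 1 and 2 and to 147, 157 and 184 without jhd2Δ replicates 1, 2 and 3.

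**Figure D1:**
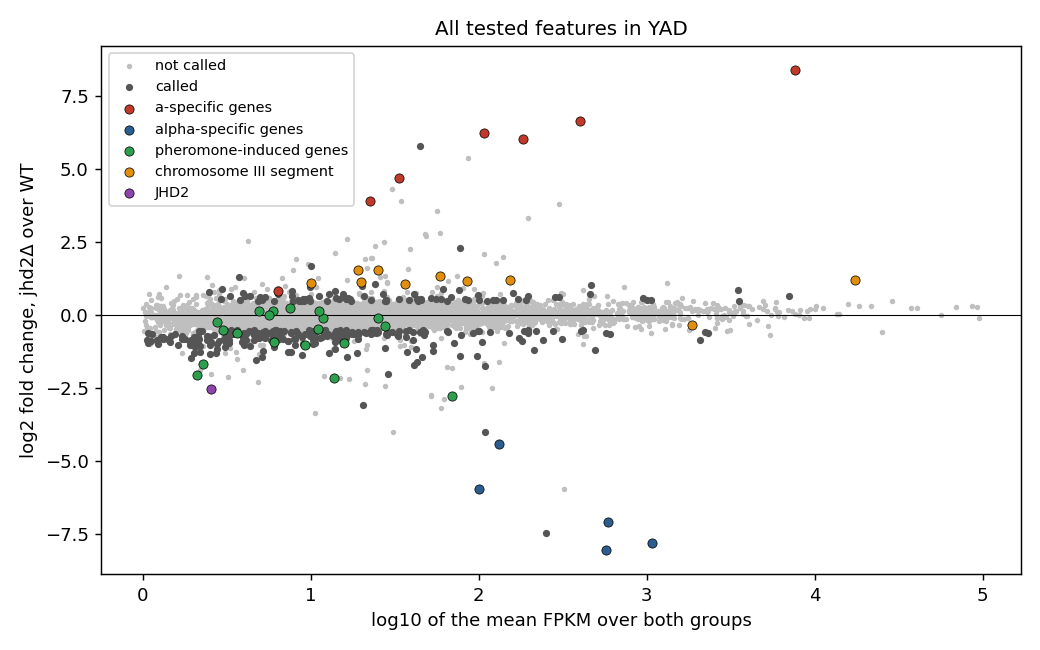
Log2 fold change of jhd2Δ over WT in YAD against mean FPKM on a log axis, 1 point per tested feature, with called features and members of the mating-type lists in their own colours. The mating-type genes stand farthest from 0, and most of the 354 called features lie within a few log2 units of the median of 0.01.

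A second set of values bears on the same cultures. The authors also deposited a group FPKM for each genotype, estimated once for the replicates together, and it did not always follow the replicate values. Of the 104 features called up, 102 had a group value and 98 of those were higher in jhd2Δ by it. Of the 250 called down, 249 had one, of which 169 were lower in jhd2Δ and 80 were higher. Calls with over 1.4-fold the same way in the group FPKM numbered 39 up (0.636% of 6136 features with both values) and 39 down (0.636%). For the features called down, the group FPKM was a median 2.17 times the mean of the replicates in jhd2Δ and 1.4 times in WT, against 1.02 and 1.06 times over all tested features. Their median length was 1330 nt and their median GC content 41.5%, against 1113 nt and 39.6% over all tested features. The part of length and GC content in this disagreement was not tested, and the 78 features called by both values are kept apart below from those called by replicate values alone.

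**Figure D2:**
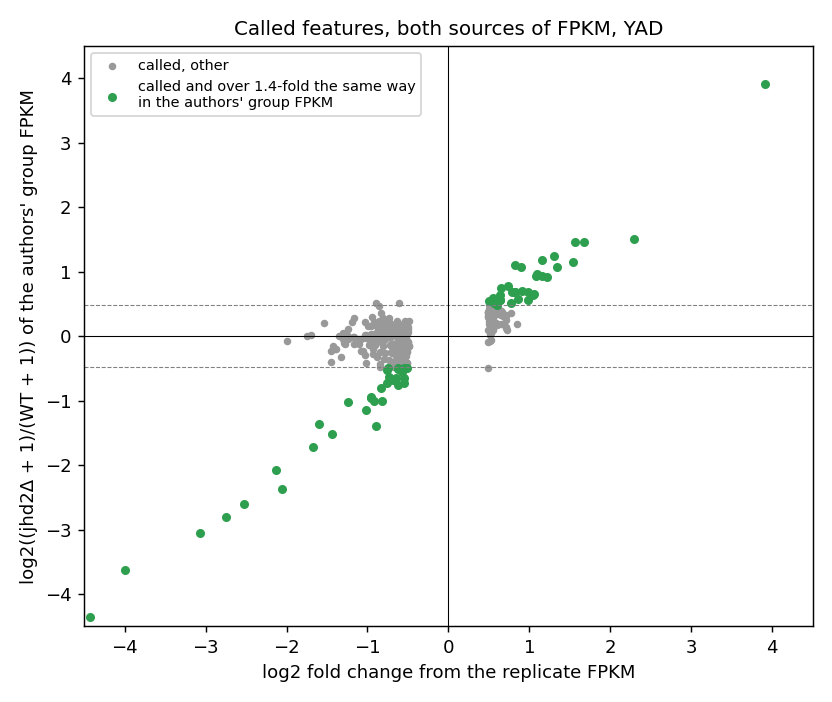
Log2 ratio of jhd2Δ over WT in the authors' group FPKM against the log2 fold change from the replicate FPKM for the 351 called features with both values, of which 10 lie outside the limits of the plot (±4.5). Features called up lie mostly above 0 on both axes, whereas many called down sit near 0 by the group FPKM.

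The a-specific genes were high in jhd2Δ and low in WT. Of 7, 6 rose and 7 did not overlap between the genotypes, at a median log2 fold change of 6.04, beside 1.68% of all features called up and 17.6% that lay wholly above WT. MFA2, which encodes the a-factor pheromone, stood at 14589, 16786 and 14394 FPKM in the jhd2Δ libraries, against 32.7, 29.5 and 98.9 FPKM in the WT libraries. Its paralog MFA1 was at 193, 238 and 193 FPKM in jhd2Δ and 0, 0 and 21.9 FPKM in WT. A single WT library therefore set the spread of MFA1, which was not called (log2 fold change 6.24, SE 1.44, limma adjusted p = 0.0768); without WT replicate 3 it passed the test with a log2 fold change of 7.72. STE2, the α-factor receptor, was at 810.04, 809.8 and 771 FPKM in the jhd2Δ libraries, against 7.797, 6.47 and 7.45 FPKM in the WT libraries. The libraries within each genotype lay close together. STE6, the exporter of a-factor, was at 39.8, 44.6 and 44.4 FPKM in jhd2Δ and 1.85, 1.82 and 2.43 FPKM in WT. BAR1, a secreted protease that cleaves α-factor, was at 62.03, 64.8 and 69.997 FPKM in jhd2Δ and 1.57, 2.02 and 1.38 FPKM in WT. The lowest jhd2Δ library of these genes was far above the highest WT library. AGA2, the binding subunit of the a-agglutinin, was at 348, 382 and 346 FPKM in jhd2Δ and 6.57, 1.47 and 8.89 FPKM in WT. ASG7, which dampens pheromone signalling in newly mated cells, rose least. It stood at 9.35, 7.26 and 8.47 FPKM in the jhd2Δ libraries, against 3.92, 5.24 and 4.23 FPKM in the WT libraries (log2 fold change 0.83, SE 0.16, limma adjusted p = 0.0274). The 6 that rose were over 1.4-fold higher by the group FPKM as well.

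The α-specific genes showed the reverse. All 5 fell and none overlapped, at a median log2 fold change of -7.07, beside 4.04% of all features called down and 18.1% that lay wholly below WT. MF(ALPHA)1, the main α-factor gene, was at 3.07, 3.43 and 2.92 FPKM in the jhd2Δ libraries, against 1076, 1195 and 1129 FPKM in the WT libraries (log2 fold change -8.05, SE 0.10, limma adjusted p = 2.79e-08). MF(ALPHA)2, the second α-factor gene, was at 6.85, 10.4 and 7.84 FPKM in jhd2Δ and 1860.3, 2442 and 2079 FPKM in WT. STE3, the a-factor receptor, was at 1.88, 2.05 and 2.43 FPKM in jhd2Δ and 195, 209 and 191 FPKM in WT. No α-specific gene was listed at 0 in jhd2Δ, and the level there ran from 1.88 FPKM for STE3 to 12.5 FPKM for AFB1. SAG1, the α-agglutinin, was at 6.902, 7.12 and 7.73 FPKM in jhd2Δ and 938, 1491 and 1084 FPKM in WT. AFB1, an a-factor barrier gene, was at 12.5, 8.91 and 10.1 FPKM in jhd2Δ and 228, 275 and 260.5 FPKM in WT. HMRA1, annotated at the silent a cassette, matches the a1 gene that Mat a cells carry at MAT, and its reads cannot be placed. It was at 88.6, 86.2 and 90.0 FPKM in the jhd2Δ libraries, against 0.978, 0 and 1.35 FPKM in the WT libraries. The other 5 cassette genes, which encode α1, α2 and a2 at the MAT locus of the reference and at the silent loci, were listed at 0 in all 6 libraries, WT included, and share near-identical copies.

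**Figure D3:**
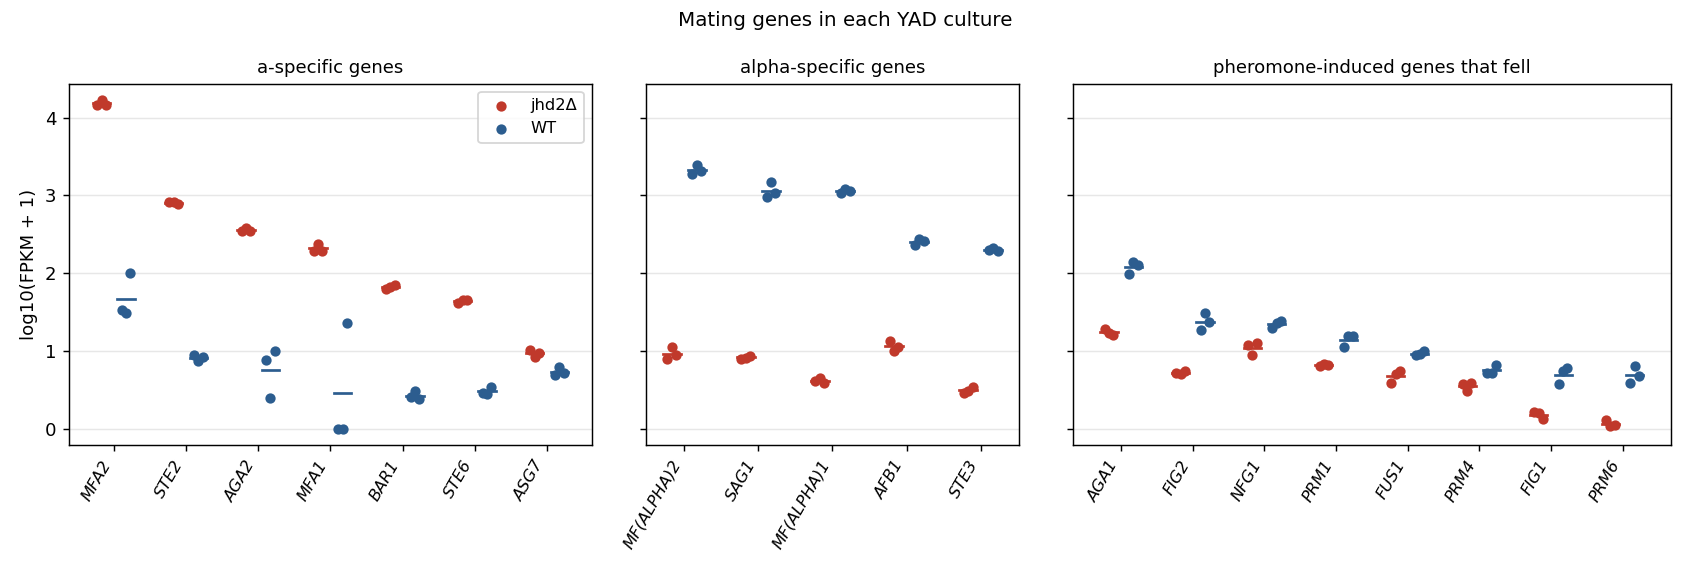
Levels of the a-specific genes, the α-specific genes and the 8 called pheromone-induced genes in each library, as the logarithm of FPKM + 1, with jhd2Δ left of WT. The jhd2Δ libraries lie above WT for every a-specific gene and below it for every α-specific gene and each of the 8 pheromone-induced genes.

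Most features beside the mating-type genes were not called. Of 27 tested features across or within 1000 nt of an a-specific or α-specific gene, a window chosen after seeing the data, 4 rose, 5 fell and 18 were not called, beside 1.68% of all features called up and 4.04% called down. The pheromone-induced gene NFG1, next to AFB1, is 1 of the 5 and is given below, and the others follow. YKL177W, which lies across STE3 on the opposite strand, stood at 1.45, 1.89 and 2.01 FPKM in the jhd2Δ libraries, against 452, 566 and 478 FPKM in the WT libraries. YLR041W, across AFB1, was at 12.6, 10.6 and 11.3 FPKM in jhd2Δ and 205, 220.2 and 195 FPKM in WT. Reads of these features and of the genes they overlap cannot be separated in the table. LIF1, a gene of DNA end joining that lies 206 nt from MF(ALPHA)2 without overlap, was at 2.69, 4.22 and 3.41 FPKM in jhd2Δ and 32.2, 39.8 and 39.7 FPKM in WT. GYP8, a GTPase-activating protein gene annotated next to STE2, rose, and stood at 14.3, 16.8 and 15.9 FPKM in the jhd2Δ libraries, against 4.49, 3.73 and 5.04 FPKM in the WT libraries (log2 fold change 1.67, SE 0.091, limma adjusted p = 0.000103). YNL146C-A, close to MFA2, was at 133, 106 and 144 FPKM in jhd2Δ and 31.6, 14.1 and 38.6 FPKM in WT. The genotypes did not overlap at either feature. On each side of MFA1 the neighbours also rose, namely TFB3, a subunit of the transcription factor TFIIH (log2 fold change 0.83), and CMI8 (0.74), which are outside the rule for named genes and were picked after their values were seen. POS5, a mitochondrial NADH kinase gene annotated next to MF(ALPHA)1, likewise picked afterwards, fell (-0.82) at 12.1, 14.03 and 13.3 FPKM in jhd2Δ and 25.2, 24.6 and 24.99 FPKM in WT.

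Pheromone-induced genes were lower in jhd2Δ. Of 19 listed genes that both haploid types can induce, 8 fell, 0 rose and 11 lay wholly below WT, beside 4.04% of all features called down and 18.1% lying below. Like the other lists, this list was chosen with earlier results of these data known, so its count is a description. At an unadjusted limma p under 0.05 the numbers were 9 lower and 0 higher. The median log2 fold change of the 19 was -0.45 by the replicates and -0.59 by the group FPKM, and all 8 that fell did so by both. AGA1, the anchor subunit of the a-agglutinin, was at 17.96, 16.2 and 14.8 FPKM in the jhd2Δ libraries, against 97.7, 139 and 128 FPKM in the WT libraries (log2 fold change -2.75, SE 0.18, limma adjusted p = 0.000491). The lowest WT library was clear of every jhd2Δ library. FIG2, a cell wall adhesin of mating cells, was at 4.21, 3.98 and 4.56 FPKM in the jhd2Δ libraries, against 17.7, 29.6 and 22.7 FPKM in the WT libraries (log2 fold change -2.14, SE 0.20, limma adjusted p = 0.00333). PRM6, a potassium transporter gene, was at 0.279, 0.0983 and 0.107 FPKM in the jhd2Δ libraries, against 2.91, 5.39 and 3.79 FPKM in the WT libraries. FIG1, a membrane protein needed for calcium entry during mating, was at 0.663, 0.582 and 0.323 FPKM in the jhd2Δ libraries, against 2.77, 4.45 and 4.96 FPKM in the WT libraries. In these 4 genes the WT libraries were spread more widely than the jhd2Δ libraries, and the genotypes did not come near each other.

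The other 4 called members were smaller and lay outside the rule for named genes, so they were chosen after their values were seen. PRM1, which acts in the fusion of plasma membranes, was at 5.41, 5.71 and 5.604 FPKM in jhd2Δ and 10.1, 14.4 and 14.4 FPKM in WT (log2 fold change -1.02). FUS1, a cell fusion protein, was at 2.86, 4.05 and 4.498 FPKM in jhd2Δ and 7.75, 8.22 and 8.85 FPKM in WT (log2 fold change -0.92). The genotypes did not overlap for either gene. NFG1, a regulator of filamentous growth that sits 383 nt from AFB1, was at 10.9, 7.89 and 11.6 FPKM in jhd2Δ and 18.7, 21.6 and 23.3 FPKM in WT (log2 fold change -0.95). PRM4 was at 2.797, 2.01 and 2.87 FPKM in jhd2Δ and 4.28, 4.19 and 5.51 FPKM in WT, with an adjusted p of 0.0496 in limma and so just inside the threshold. All WT libraries lay above all jhd2Δ libraries for both. FUS2, another fusion gene, was just outside the threshold, with 2.09, 2.33 and 2.203 FPKM in the jhd2Δ libraries, against 3.09, 4.09 and 4.096 FPKM in the WT libraries (log2 fold change -0.52, SE 0.14, limma adjusted p = 0.0564). The karyogamy genes KAR3 (0.01), KAR4 (-0.10) and KAR5 (0.15) and the kinesin partner CIK1 (0.25) did not pass the test. Under each of the alternative settings, with a library left out among them, 6 to 9 of the 19 fell and 0 rose, except among the 8 of them that averaged at least 10 FPKM, of which 3 fell.

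The letters TGAAACA, the core of the element that Ste12 binds, stood within the 500 nt before the start codon in 12 of the 19 pheromone-induced genes, against 720 of 5983 protein-coding features (12%). The matches did not follow the calls: 5 of the 8 that fell held one, and 7 of the 11 that were not called. The 7 a-specific genes, all of which stood higher in jhd2Δ, held one too. For the 5 that fell with a match, the match nearest to the start codon is printed below in capitals, with the same build, source and strand as above and written TGTTTCA where it lies on the other strand.
AGA1 (chrXIV:703486-703515, plus strand): acataattttcTGAAACAatattaaaacat
FIG2 (chrIII:267069-267098, plus strand): taaaacaacacTGAAACAaacttattgcac
PRM6 (chrXIII:181213-181242, minus strand): aacgaatgatcTGAAACAataaaaaaagat
PRM1 (chrXIV:110747-110776, plus strand): tgtttcaatacTGTTTCAgaagtgcgtcac
FUS1 (chrIII:71632-71661, plus strand): cgtctgtaattTGAAACAaataacgtaatt
FIG1, NFG1 and PRM4 fell and held no such letters in this window.

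The signalling genes that both haploid types share had a median nearer 0. Of 26, 2 fell and 0 rose, at a median of -0.11 on the log2 scale, and 12 lay wholly below WT, beside 4.04% called down and 18.1% lying below among all features. At an unadjusted limma p under 0.05 these numbers were 9 and 0. FUS3, the MAP kinase of the mating pathway, was at 6.304, 5.85 and 6.56 FPKM in the jhd2Δ libraries, against 11.1, 12.4 and 11.04 FPKM in the WT libraries (log2 fold change -0.74, SE 0.11, limma adjusted p = 0.0115). SST2, which shuts the G protein off again, was at 25.7, 27.7 and 25.7 FPKM in the jhd2Δ libraries, against 38.3, 41.3 and 42.4 FPKM in the WT libraries (log2 fold change -0.55, SE 0.092, limma adjusted p = 0.0183). Both were over 1.4-fold lower by the group FPKM too. STE12, the transcription factor itself, was at 12.4, 12.8 and 12.3 FPKM in jhd2Δ and 19.1, 15.9 and 16.99 FPKM in WT, and with an adjusted p of 0.0351 in limma its fold stayed under 1.4 (log2 fold change -0.39). The G protein genes GPA1 (-0.25), STE4 (0.15) and STE18 (-0.55), the scaffold gene STE5 (-0.11) and the kinase genes STE11 (0.16) and STE7 (0.11) did not pass the test. In bulk cultures, fewer cells with a transcript and less of it per cell cannot be told apart.

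The same genes were set against YGD, a medium with glutamate in place of ammonium, where the strains carry the same mating-type labels, and against YAR, with raffinose in place of glucose, where both strains are labelled Mat a. In YGD, WT replicate 3 stood apart from the other libraries with a scale of 1.59. None of the 17 pheromone-induced genes tested in YGD was called in limma (5 lower and 0 higher at an unadjusted p under 0.05), where 12 of 6211 features (0.193%) were called up and 9 (0.145%) down, and 3 fell once WT replicate 3 was left out, an alternative chosen after seeing the data in which 19 of 6231 features (0.305%) were called in each direction: AGA1 (-1.52), FIG2 (-0.87) and NFG1 (-1.53). With all libraries AGA1 was at -1.06 in YGD (limma adjusted p = 0.708), and its effect in YAD minus that in YGD was -1.70 (limma adjusted p = 0.447), so a difference between the media was not shown. In YAR AGA1 was at 0.38, PRM1 at 0.34 and FUS1 at 0.13, none of them called. Of the 15 pheromone-induced genes tested there 0 fell and 1 rose in limma, KAR4 (0.63), named after its value was seen, and of the 26 signalling genes 3 fell and 2 rose, beside 8.6% of all features called down and 13.8% called up. FUS3 fell there (-0.83, limma adjusted p = 0.0034) as in YAD, and its effect in YAD minus that in YAR was 0.092 without passing the test. The effect in YAD minus that in YAR was -3.13 for AGA1 (limma adjusted p = 0.00104). By that test 6 of the 15 pheromone-induced genes and 4 of the 26 signalling genes had a lower effect in YAD. Of all 5702 features tested in this way, 871 had a lower effect and 583 a higher one. The share of signalling genes with a lower effect was near that of all features. The carbon source and the mating-type label of WT differ together between YAD and YAR and cannot be told apart. The annotated bounds of features also differed in part between YAD and YAR, and their share in these differences was not tested.

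On chromosome III a block of adjacent genes was also high in jhd2Δ. It extends from SAT4 to SRD1 (chrIII:128470-148903), contains the glycolytic gene PGK1, and was picked from earlier results of these data, so its values are a description. In it 9 of 10 tested features rose, beside 1.68% of all features. Nothing is read from this count, since the block was picked by it. SAT4, a protein kinase gene at its left end, was at 47.95, 49.2 and 49.7 FPKM in the jhd2Δ libraries, against 25.6, 21.9 and 22.99 FPKM in the WT libraries, and SRD1, a gene of ribosomal RNA processing at its right end, was at 36.4, 25.4 and 24.2 FPKM in the jhd2Δ libraries, against 11.5, 8.53 and 8.12 FPKM in the WT libraries. In each of the 9 the 3 jhd2Δ libraries lay above the 3 WT libraries. YCR013C, which overlaps PGK1 on the opposite strand, was the exception among the tested features. It stood at 1471, 1619 and 1669 FPKM in the jhd2Δ libraries, against 2162, 2567 and 1605 FPKM in the WT libraries. ADY2, beside ADP1 in the block, averaged 0.737 FPKM in jhd2Δ and 0.682 FPKM in WT and was too low to be tested. The authors' group FPKM gave a median log2 ratio of 1.02 over the 8 features for which it could be used, beside 1.19 by the replicates, and PGK1 and YCR013C were listed at 0 in jhd2Δ in that table with a status other than OK. Within the 10 features on either side, HTL1, a subunit of the RSC remodeller on the right, rose with 70.5, 64.6 and 74.9 FPKM in the jhd2Δ libraries, against 52.3, 42.02 and 54.5 FPKM in the WT libraries, and on the left YCR001W (0.98) and YCR006C (0.71) rose. All 3 were picked after their values were seen. Over the whole of chromosome III, 14 of 167 tested features rose (8.38%) and 8 fell (4.79%). In YGD the median of the block was 0.99 with all libraries. It was 1.08 without WT replicate 3, an alternative chosen after seeing the data. With all libraries SAT4 (0.99), RVS161 (0.96) and POL4 (0.98) were called in YGD and the rest of the block was not. In YAR the median was -0.03, with members on both sides. There PGK1 (1.69) and CWH43 (0.63) rose, RVS161 (-0.61) and SRD1 (-0.85) fell, and the rest were not called.

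**Figure D4:**
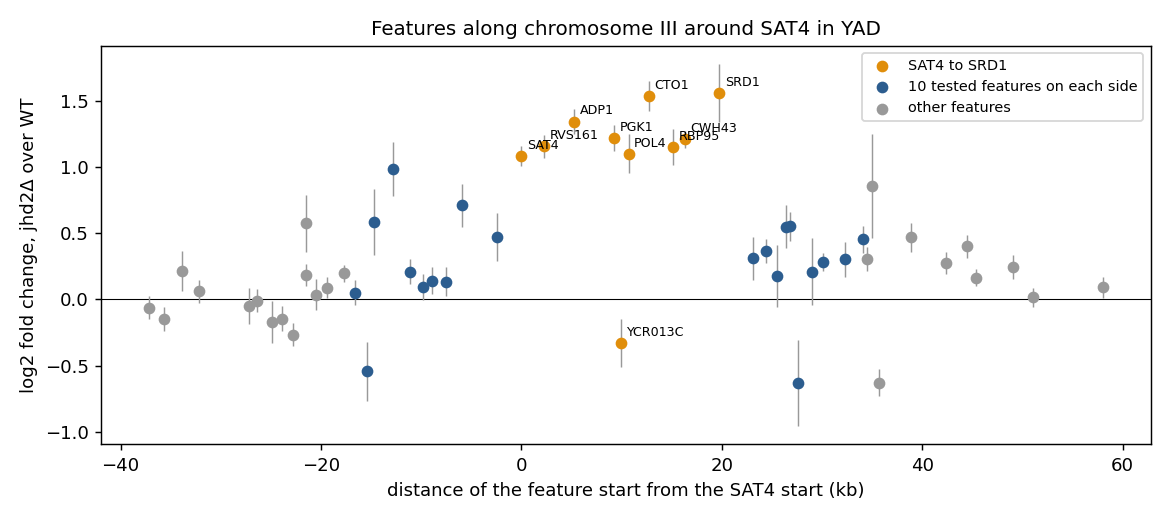
Log2 fold change of jhd2Δ over WT in YAD for the features of chromosome III around SAT4, by distance from its start. The segment from SAT4 to SRD1 and the 10 tested features on each side are marked. The 9 called features of the segment lie together at 1.09 to 1.56, and the 10 features on its left and right have medians of 0.18 and 0.31.

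Outside the a-specific, α-specific and cassette lists and this block, 88 features rose and 245 fell, the 8 pheromone-induced genes and JHD2 among them. Single genes that rose by both values are given first. OPT2, an oligopeptide transporter of the peroxisome and plasma membrane, was at 29.96, 30.4 and 37.3 FPKM in the jhd2Δ libraries, against 19.6, 13.4 and 14.5 FPKM in the WT libraries (log2 fold change 1.06, SE 0.13, limma adjusted p = 0.00697). OPT1, the glutathione and peptide transporter, was at 78.8, 72.5 and 86.6 FPKM in the jhd2Δ libraries, against 42.1, 43.5 and 45.1 FPKM in the WT libraries (log2 fold change 0.90, SE 0.1, limma adjusted p = 0.00503). HXT7, a high-affinity hexose transporter whose sequence is nearly identical to that of HXT6, was at 3.85, 4.05 and 9.44 FPKM in jhd2Δ and 1.28, 1.86 and 1.83 FPKM in WT, and the highest jhd2Δ library stood well above the other jhd2Δ libraries (log2 fold change 1.30, SE 0.28, limma adjusted p = 0.0387). SEO1, a putative permease (0.77), and DAL4, the allantoin permease (0.64), rose too and were picked after their values were seen. The genotypes did not overlap for any of these 5 genes, and none of them was called in YGD. In YAR HXT7 (0.93), SEO1 (0.80) and DAL4 (1.14) rose too, OPT1 (0.26) did not pass the test and OPT2 was not tested. Among features without a known product, YBR196C-B was at 509.5, 823 and 529 FPKM in jhd2Δ and 286, 391.9 and 253 FPKM in WT (log2 fold change 1.04), and YOR170W, which overlaps LCB4, at 34.2, 24.2 and 22.3 FPKM in jhd2Δ and 13.6, 11.2 and 15.8 FPKM in WT (log2 fold change 0.99).

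Several single genes of other pathways rose by both values. PHM7, a gene of the phosphate-starvation list, was at 16.1, 17.7 and 19.8 FPKM in the jhd2Δ libraries, against 9.12, 9.99 and 11.1 FPKM in the WT libraries (log2 fold change 0.82). HES1, a sterol-binding protein gene, was at 2.26, 4.597 and 3.35 FPKM in jhd2Δ and 1.68, 1.24 and 1.75 FPKM in WT (log2 fold change 0.79). SPS4, a gene of sporulation, was at 7.98, 9.16 and 11.1 FPKM in jhd2Δ and 6.95, 4.82 and 5.97 FPKM in WT (log2 fold change 0.64). In each case 1 gene of its list rose: 1 of 22 for phosphate starvation, 1 of 26 for ergosterol and 1 of 22 for sporulation, beside 1.68% of all features. Of 10 histone genes 2 rose, beside the same 1.68%, both of them copies of histone H4, with a list median of 0.27. HHF1 was at 1060.5, 1149.5 and 1168 FPKM in the jhd2Δ libraries, against 799, 690.5 and 834 FPKM in the WT libraries (log2 fold change 0.60, SE 0.078, limma adjusted p = 0.00825). HHF2 was at 1153, 1238 and 1279 FPKM in jhd2Δ and 925, 828 and 937 FPKM in WT (log2 fold change 0.51), with a group ratio of 0.42 that stayed under 1.4-fold. Both genes encode the same protein, and reads of near-identical copies may be split between them. Under summed-FPKM scaling the fold of HHF1 also dropped under 1.4. In YGD the list median was -0.32 with 0 members called, and HHF1 was at -0.62 without passing the test. In YAR the list median was 0.24 and 3 members rose, beside 13.8% of all features called up.

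Among the genes that fell by both values outside mating, RPL39, a protein of the large ribosomal subunit, was at 36.4, 21.9 and 33.5 FPKM in the jhd2Δ libraries, against 89.4, 75.9 and 61.7 FPKM in the WT libraries (log2 fold change -1.24, SE 0.24, limma adjusted p = 0.0324). PYC1, a pyruvate carboxylase that feeds the TCA cycle with oxaloacetate, was at 48.3, 58.6 and 68.9 FPKM in the jhd2Δ libraries, against 106, 87.03 and 100.2 FPKM in the WT libraries (log2 fold change -0.68, SE 0.099, limma adjusted p = 0.0115). The genotypes did not overlap for either gene. RRP12, which is needed to export ribosomal subunits from the nucleus, was at 18.1, 19.01 and 18.5 FPKM in jhd2Δ and 33.8, 27.7 and 28.8 FPKM in WT (log2 fold change -0.61). ORM2, a regulator of sphingolipid synthesis, was at 33.6, 35.1 and 43.9 FPKM in jhd2Δ and 54.5, 64.3 and 51.8 FPKM in WT (log2 fold change -0.53). These 4 genes and the 2 that follow were chosen after their values were seen. ROQ1, a gene of stress-induced protein degradation, was at 1.07, 0.975 and 1.22 FPKM in jhd2Δ and 2.32, 3.68 and 3.56 FPKM in WT (log2 fold change -0.95), and PRY2, a secreted sterol-binding protein gene, at 45.9, 52.9 and 53.8 FPKM in jhd2Δ and 65.8, 87.7 and 85.5 FPKM in WT (log2 fold change -0.57). In YGD none of the 6 was called. In YAR ORM2 fell as well (-0.74) and RPL39 rose (0.61). Among features without a known product, YBR223W-A, which overlaps TDP1, was at 20.2, 15.1 and 25.9 FPKM in jhd2Δ and 81.6, 63.7 and 52.1 FPKM in WT, and YLR154W-E, which lies within the ribosomal DNA, at 7.22, 12.5 and 5.396 FPKM in jhd2Δ and 30.96, 22.3 and 20.0 FPKM in WT.

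Among called features other than JHD2, the genes of mating and the features beside or across them, the 3 lowest fold changes belonged to genes with no such difference in the group FPKM. YHR020W, which encodes prolyl-tRNA synthetase, was at 8.76, 11.03 and 11.7 FPKM in the jhd2Δ libraries, against 52.1, 54.9 and 34.8 FPKM in the WT libraries (log2 fold change -1.997, SE 0.18, limma adjusted p = 0.0027), whereas its group FPKM was 97.03 in jhd2Δ and 102 in WT. PDB1, a subunit of pyruvate dehydrogenase, was at 39.3, 48.7 and 53.7 FPKM in the jhd2Δ libraries, against 178, 207 and 124 FPKM in the WT libraries (log2 fold change -1.75, SE 0.20, limma adjusted p = 0.00776), with a group FPKM of 290.4 in jhd2Δ and 292 in WT. HEM1, the first enzyme of heme synthesis, was at 14.8, 18.98 and 20.2 FPKM in jhd2Δ and 65.1, 76.8 and 49.4 FPKM in WT (log2 fold change -1.70), and its group FPKM was 98.5 in jhd2Δ and 96.99 in WT. For these 3 genes the replicates did not overlap and yet both group values were above every replicate value, so the 2 estimates of the same cultures disagree on whether there was a difference. GGA2, a gene of Golgi sorting, was at 8.08, 10.5 and 11.8 FPKM in jhd2Δ and 29.95, 27.5 and 24.6 FPKM in WT with a group ratio of -0.04 on the log2 scale. YBL100C (-1.45), YKL153W (-1.41) and OPI11 (-1.39) overlap ATP1, GPM1 and RPL43A, and their group ratios were -0.40, -0.20 and -0.20.

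DNA-binding regulators of growth form and nutrient use were such a group. Of 49, 8 fell, 0 rose and 22 lay wholly below WT, at a median of -0.10 on the log2 scale, beside 4.04% called down and 18.1% lying below among all features. This list too was chosen with earlier results of these data known, and its count is a description. An unadjusted limma p under 0.05 was reached by 20 lower and 6 higher members. By the group FPKM 24 of the 49 were above 0 and 25 below, and 0 of the 8 were over 1.4-fold lower. PHD1, a regulator of pseudohyphal growth, was at 5.799, 6.997 and 7.62 FPKM in the jhd2Δ libraries, against 19.8, 18.7 and 17.9 FPKM in the WT libraries (log2 fold change -1.30, SE 0.083, limma adjusted p = 0.000295), with a group FPKM of 30.8 in jhd2Δ and 29.7 in WT. INO4, the activator of phospholipid genes, was at 2.04, 3.09 and 2.59 FPKM in jhd2Δ and 6.91, 9.899 and 6.41 FPKM in WT (log2 fold change -1.23), and PHO4, the activator of phosphate genes, at 0.625, 0.586 and 0.803 FPKM in jhd2Δ and 2.68, 2.28 and 1.67 FPKM in WT (log2 fold change -0.90). Their group ratios were 0.05 for PHD1, -0.04 for INO4 and 0.51 for PHO4. ROX1, the repressor of hypoxic genes, was at 2.29, 2.44 and 2.88 FPKM in jhd2Δ and 6.49, 5.39 and 5.05 FPKM in WT (log2 fold change -0.86) with a group ratio of 0.46. SKN7 (-0.83), DAL81 (-0.71), FLO8 (-0.70) and SOK2 (-0.69), the remaining members called, are outside the rule for named genes and are named after their values were seen. Leaving out jhd2Δ replicate 1 gave 3 that fell. Over all settings the number that fell ran between 1, among the 19 of at least 10 FPKM, and 14. Some settings also had members that rose. Removing the trend with GC content and length, an alternative chosen after seeing the data, gave 2 up and 5 down at a median of -0.06. A pseudocount of 0.1 gave 1 up and 9 down.

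The called genes of the cell wall, histone modifier, cyclin and metabolic lists described next were likewise not among the 78 called by both values. Of 28 cell wall genes, 4 fell and 1 rose (median -0.08), beside 4.04% and 1.68% of all features: the structural protein gene CCW14 stood at 103, 134 and 141 FPKM in jhd2Δ and 274, 361 and 263 FPKM in WT (log2 fold change -1.18), and YPS1 (-1.02), SCW10 (-0.84) and MID2 (-0.51) also fell, whereas DSE4, a daughter-cell glucanase, rose (0.50). Group ratios of these 5 ran between -0.43 and 0.18. Of 23 other histone modifiers 3 fell, beside the same 4.04%, namely EPL1 (-0.84), SIN3 (-0.50) and EAF1 (-0.49). BRE1, the ubiquitin ligase for histone H2B on which H3K4 methylation depends, was at 6.14, 7.65 and 7.63 FPKM in the jhd2Δ libraries, against 15.4, 13.98 and 11.9 FPKM in the WT libraries (log2 fold change -0.81, SE 0.11, limma adjusted p = 0.00841), but its group FPKM was 37.01 in jhd2Δ and 30.3 in WT. CLN2, a G1 cyclin, was at 7.71, 9.83 and 9.69 FPKM in jhd2Δ and 18.5, 20.5 and 16.9 FPKM in WT (log2 fold change -0.91), while CLB6, an S-phase cyclin, was at 5.73, 7.46 and 6.75 FPKM in jhd2Δ and 4.601, 4.19 and 3.46 FPKM in WT (log2 fold change 0.64).

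In metabolism, 3 of 48 amino acid synthesis genes fell, HIS3 (-0.57), ILV2 (-0.54) and ASN1 (-0.54), with a list median of -0.11. The study lists his3 as a mutation of auxotrophic BY4742 strains, and the HIS3 allele of the prototrophs used here is not described. Of the 48 genes, 16 lay wholly below WT. Among all features 4.04% were called down and 18.1% lay below, so the number called was close to that background. The 4.04% called down and the 1.68% called up also stand beside the counts that follow. MDH1, the mitochondrial malate dehydrogenase, was the 1 of 18 TCA cycle genes that fell (-0.63), and GAT1, an activator of nitrogen-source genes, the 1 of 18 in ammonium and glutamate metabolism (-0.65). The glutamate dehydrogenase gene GDH1 (-0.33) and the ammonium permease genes MEP1 (-0.16), MEP2 (0.09) and MEP3 (0.05) did not pass the test. In sulfur metabolism, with 24 genes tested, the sulfate-assimilation genes MET14 (0.62) and MET16 (0.55) rose and CYS3 (-0.55) and MET8 (-0.55) fell. ADE17 of purine synthesis fell (-0.80), as did IME4, a gene of meiotic entry (-0.77), SPI1, a cell wall protein gene of the stress list (-0.94), MIG2, a glucose repressor (-0.71), and OPI1, the repressor of phospholipid genes (-1.03). COX5B, the hypoxic subunit of cytochrome c oxidase, rose (0.53), and so did HEM13 of heme synthesis (0.78). Of the 8 genes of the mitochondrial genome OLI1 was called (0.65), at 8279, 8795 and 8169.9 FPKM in jhd2Δ and 6487, 4545 and 5853 FPKM in WT. All 8 stood above 0 at a median of 0.42, and 7 lay wholly above WT, beside 17.6% of all features. An unadjusted limma p under 0.05 was reached by 6 higher and 0 lower members. By the group FPKM their median was 0.12, with 6 above 0 and 2 below.

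**Figure D5:**
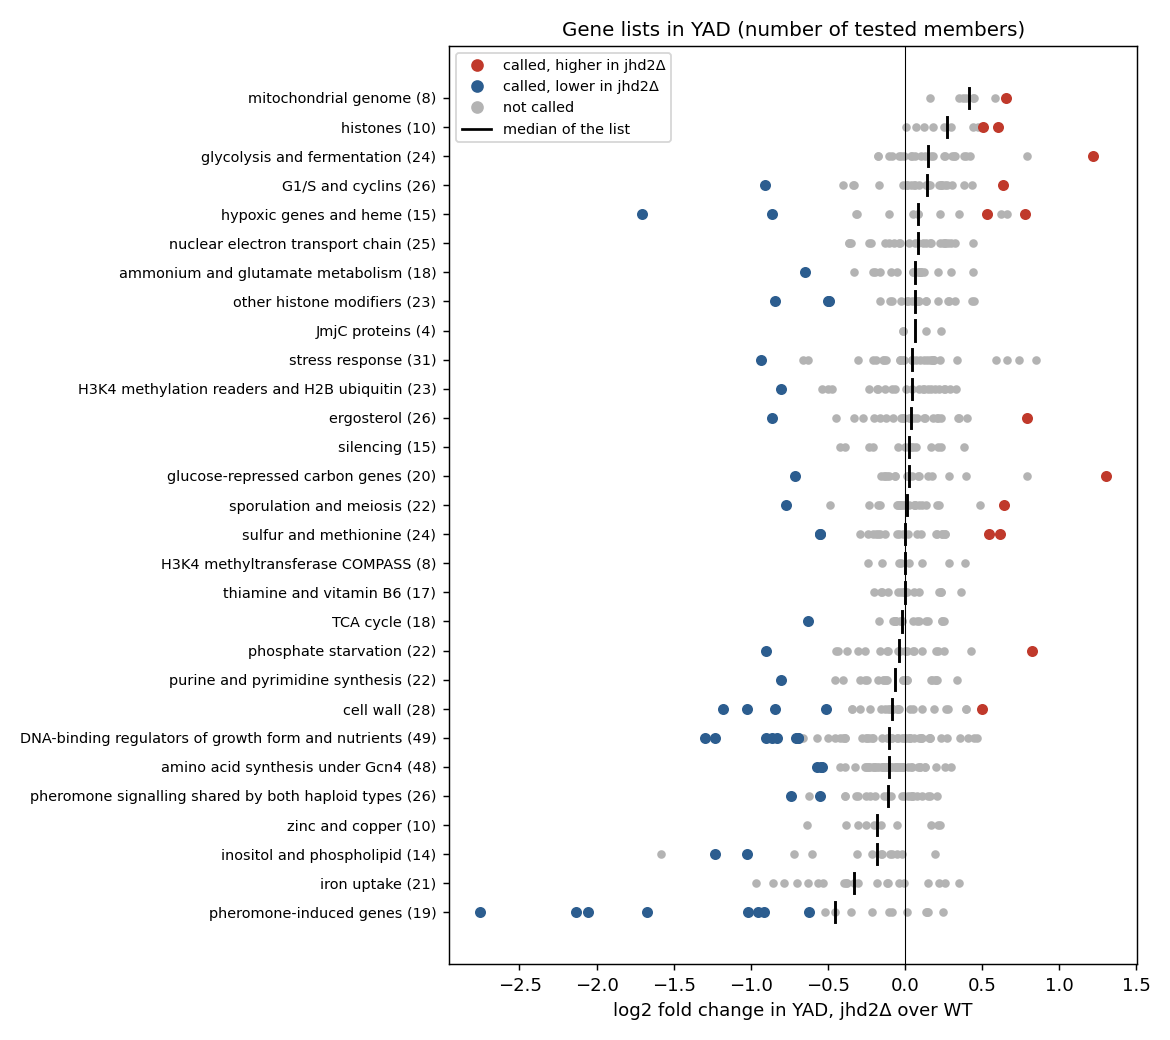
Log2 fold change of jhd2Δ over WT in YAD for each tested member of the lists drawn, 1 row per list, without the mating-type lists. Called members are marked and the list median is a bar. The pheromone-induced list has a median of -0.45, and the medians of the other lists drawn lie between -0.33 and 0.42.

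In several lists 0 genes were called in limma. These were the methyltransferase complex COMPASS (0 of 8), the other JmjC proteins (0 of 4), silencing (0 of 15), iron uptake (0 of 21), the nuclear electron transport chain (0 of 25), thiamine and vitamin B6 (0 of 17) and zinc and copper (0 of 10). At an unadjusted p under 0.05 the numbers up and down were 2 and 0 for COMPASS, 1 and 0 for JmjC proteins, 2 and 2 for silencing, 1 and 5 for iron uptake, 6 and 2 for electron transport, 1 and 1 for thiamine and 0 and 4 for zinc and copper. SET1, the catalytic subunit of COMPASS, was at 8.27, 7.07 and 7.86 FPKM in jhd2Δ and 9.02, 7.98 and 7.96 FPKM in WT (log2 fold change -0.04). SHG1, another subunit, was at 11.3, 13.9 and 14.6 FPKM in the jhd2Δ libraries, against 9.76, 10.3 and 10.7 FPKM in the WT libraries, with an adjusted p of 0.0374 in limma and a fold under 1.4 (log2 fold change 0.39). The other subunits ran between -0.24 for BRE2 and 0.28 for SDC1, with SWD1 (0.11), SWD2 (-0.03), SWD3 (-0.15) and SPP1 (0.03) between them. The JmjC genes were at 0.23 (JHD1), 0.13 (GIS1), -0.01 (RPH1) and -0.01 (ECM5). SWD1 and SPP1 changed sign when libraries were scaled to summed FPKM.

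Across the other media, the features called in YAD leaned the same way in YGD. Of the 239 called down and tested there, 211 had the same sign (88.28%), and of the 104 called up 73 had it (70.19%), beside 57.9% of all tested features. YGD called 9 of the fallers and 10 of the risers in the same direction and 0 in the other. The 10 risers were MFA2, STE2, AGA2, BAR1, STE6, HMRA1, GYP8 beside STE2, and SAT4, RVS161 and POL4 of the chromosome III block. The 9 fallers were JHD2, MF(ALPHA)1, MF(ALPHA)2, STE3, SAG1, AFB1, LIF1, YKL177W and YLR041W. Apart from JHD2, all of these were mating-type genes, features beside or across them, or members of the block. No other feature called in YAD was called in YGD. The effect in YAD minus that in YGD was called for 3 of 6119 features (0.049%) in limma, MF(ALPHA)2 (-2.30), LIF1 (-1.77) and STE3 (-1.36), and 586 had an unadjusted p under 0.05. The effect in YAD minus that in YAR was called for 1454 of 5702 (25.5%). In YAR 149 of the 228 tested fallers (65.35%) and 56 of the 94 tested risers (59.57%) had the same sign as in YAD, beside 51.42% of all tested features. The fallers were called down in YAR in 40 cases and up in 23, and the risers up in 17 and down in 8.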

How the data were processed

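RNA of jhd2Δ and WT cultures in YAD was measured by rRNA-depleted sequencing, with 3 biological replicate cultures per genotype. Per the submitters' processing notes and the study's methods, read quality was assessed in FastQC 0.10.1, alignment to a yeast genome named build 3.1 used TopHat2 2.0.12 over Bowtie2 2.1.0, and the authors estimated FPKM per replicate with Cufflinks 2.1.1, guided by transcripts of the Saccharomyces Genome Database. The deposited values are these FPKM, and a further table holds the group FPKM that the authors estimated with Cuffdiff 2.1.1, beside fold changes, p-values and q-values of their comparison, which were not used. Tables of enriched terms and the overexpression tables were not used. Per the study's methods an external spike-in was added to the pellets, and its rows were not used here. The number of other columns of replicate values was 0. FPKM keep no depth, so no interval from counting can be given. An exact 0 may be a failed estimate.

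Of 7041 features, 856 with a mean under 1 FPKM and 1 whose status was not OK in a library were left out. Libraries were scaled by the median of ratios, and log2(FPKM + 1) was tested with limma 3.58.1 (lmFit, then eBayes with trend and robust fitting) in R 4.3.3, two-sided, with Benjamini-Hochberg adjustment over all tested features. Low features therefore have fold changes that are too small. A call needs an adjusted p under 0.05 and a fold over 1.4. Differences between media are contrasts of the within-table effects in 1 limma model. FPKM printed per library are as deposited, before scaling. Fold changes recomputed from the group FPKM also carry a pseudocount of 1.

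Named features were the mating-type, COMPASS and JmjC lists with JHD2 and 5 features on each side, the 15 highest and 15 lowest called features of at least 10 FPKM that did not overlap between genotypes, up to 4 called members per list and direction, and the chromosome III segment. The members and lists were chosen with earlier results of these data known. Sequences are from RefSeq R64, where 6033 of the 6045 features with a RefSeq locus tag had the same start and end as listed for YAD. For YAR the numbers were 5337 of 6006, with 7027 features listed, so the annotation differed in part between these media. Motifs were searched on both strands. Alternatives were other scales, pseudocounts, filters and limma settings, a replicate block, each library left out, and those added after seeing the data. Scripts (Python 3.11.15) were tested on simulated data.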

Additional observations from a re-analysis of the deposited data

Results flagged for a closer look

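The results below stand out because the effect of jhd2Δ in YAD differed from its effect in another medium by limma's test of the difference itself, and each value is the log2 fold change in YAD minus that in the other medium. Against YGD these were MF(ALPHA)2 (-2.30), STE3 (-1.36) and LIF1 (-1.77), which lies beside MF(ALPHA)2.

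Against YAR, where 1454 of 5702 features (25.5%) were called and both strains are labelled Mat a, medium and mating type cannot be told apart. Among a-specific genes and the a1 cassette the differences were MFA2 (8.52), AGA2 (7.40), STE2 (6.38), BAR1 (4.52), STE6 (4.03) and HMRA1 (5.54). Among α-specific genes they were MF(ALPHA)1 (-7.11), SAG1 (-6.96), STE3 (-6.18) and AFB1 (-3.58). Within YAR itself AGA2 (-1.36) and MF(ALPHA)1 (-0.94) fell, beside 8.6% of all features called down there. No other a-specific or α-specific gene tested in YAR was called. Of 25 features across or within 1000 nt of the a-specific and α-specific genes for which the difference was tested, 11 were not called, 6 were higher and 8 lower, and those the report names were YKL177W (-5.93), YLR041W (-2.98), LIF1 (-2.81), YNL146C-A (1.73), GYP8 (1.66), TFB3 (1.25) and CMI8 (0.88). In the pheromone lists AGA1 (-3.13), PRM1 (-1.36), FUS1 (-1.05), NFG1 (-0.99) and SST2 (-0.65) were lower in YAD than in YAR, whereas FUS3 (0.092) did not pass the test.

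In the chromosome III segment the differences were SRD1 (2.41), RVS161 (1.77), SAT4 (1.47), POL4 (1.42), RBP95 (1.29), CTO1 (1.28) and ADP1 (1.27). JHD2 itself (1.54) also differed, and its WT level was higher in YAR. As the gene is deleted in jhd2Δ, the size of its fall follows its WT level. Other features with a higher value in YAD than in YAR were YBR196C-B (1.78), MET16 (1.31), SPS4 (1.20), MET14 (0.75), DSE4 (0.60) and COX5B (0.53). Those with a lower value in YAD were YHR020W (-2.96), PDB1 (-2.62), HEM1 (-2.32), RPL39 (-1.85), MDH1 (-1.47), ADE17 (-1.34), GGA2 (-1.18), BRE1 (-1.15), CCW14 (-1.07), SCW10 (-1.06), PHO4 (-1.05), YPS1 (-0.99), PYC1 (-0.90), CYS3 (-0.77), RRP12 (-0.73), OLI1 (-0.71) and ILV2 (-0.54).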

How the results depend on the processing

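Against 354 called features in YAD, a pseudocount of 5 gave 203, a minimum mean of 10 FPKM gave 204 (fewer features are tested there), and leaving out 1 library gave between 147 and 373. Scaling to summed FPKM gave 493, with 44 up and 449 down and a median of all features of -0.12, and no scale gave 60 up and 295 down. With alternatives chosen after seeing the data, removing the trend with GC content and length gave 294 (89 up and 205 down), and asking for over 1.4-fold in the group FPKM as well gave 78. A replicate block gave 180, and under it AGA2 (limma adjusted p = 0.0504) and ASG7 (limma adjusted p = 0.0738) lost their call. Same-numbered libraries deviated together with correlations of 0.234, 0.046 and 0.133, against -0.196 to 0.082 for libraries of unlike number. Whether the numbers pair the cultures was not settled, and the reported test holds no block. The effect in YAD minus that in YGD was called for 3 features, for 1 without a scale, for 1 on summed FPKM, and for 2 to 5 with a library left out (5 without WT replicate 2 of YGD). For YAD minus YAR, the count of 1454 (583 up and 871 down) became 871 to 1675 with a library left out, with 871 falling on WT replicate 2 of YAR, where the lone sample is assumed to vary like the other groups. On summed FPKM that split was 1124 up and 507 down. Of 1679 values of single named features over these settings, 1429 kept direction and side of the threshold, 15 uncalled values of 5 features crossed 0 by less than their SE, 229 lost a call, 3 gained one (all MFA1), 3 uncalled ones moved by more than their SE and 0 reversed. The cause of these moves was not tested. HXT7, HES1, SPS4, YBR196C-B, YOR170W, YNL146C-A, ASG7 and SST2 lost their call without some single libraries.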
